A study of Mus musculus with 4 samples.

Results

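The 7 genes described here encode the MAP4 kinases Map4k4, Tnik, Mink1, Map4k1, Map4k2, Map4k3 and Map4k5, and their RNAs were examined for binding by DHX9, a helicase known for resolving base-paired stretches of RNA. Counted were the peaks of a DHX9 crosslinking experiment whose midpoint lay in the RefSeq span of any of these genes on the mouse build mm10 (assembly GRCm38.p6). There were 275 such peaks among the 43106 of the series, and 267 of the 275 lay in Map4k4. The group was chosen by the number of peaks in Map4k4, with its paralogs added, so the counts and densities of the 7 genes are given as a description, with no test.

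Binding was measured by FLASH, a crosslinking method: proteins are bonded to RNA by ultraviolet light, the protein of interest is pulled down, and the RNA that comes with it is sequenced strand by strand. The cells were neural progenitor cells grown with EGF and FGF2 from WT26, a male mouse embryonic stem cell line of background C57BL/6x129sV, so all libraries came from a single line. The groups were DHX9-Rb, pulled down with a rabbit antibody to DHX9, and IgG-Rb, pulled down with rabbit IgG as background, and neither carried any treatment or mutation. Each group had 2 biological replicates, named A and B. Analysed was the authors' 1 peak list for the series, made with PEAKachu, a caller that compares pull-down with control libraries. The list names no replicate and holds no height, score or count, so no value per library, no replicate error and no depth can be given for any gene below, and a gene with no peak is a gene with no called peak.

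MAP4 kinases belong to the STE20 family of serine/threonine kinases. They act at the top of a kinase cascade that runs through MAP3 kinases and MAP2 kinases to the c-Jun N-terminal kinase, JNK, and several of them also phosphorylate the LATS kinases of the Hippo pathway, which restrain the growth coactivator YAP. Map4k4 is known for its part in cell migration and, in neurons, in stress signalling to JNK.

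Of the 7 genes, 2 carried a peak and 5 carried none. Across all 21900 protein-coding genes, 18.9% had at least 1 peak. The counts of the 7 genes entered the choice of the group, so nothing is read from this share. Map4k4 (gene 26921, chromosome 1, 39900902 to 40026310) held 267 peaks over 125.4 kb, which is 2.13 peaks per kb, and the peaks covered 40.6% of its span (50894 bases). Tnik (gene 665113, chromosome 3, 28261901 to 28670585), whose product binds the adaptor NCK and acts in Wnt signalling, held 8 peaks over 408.7 kb. That is 0.0196 peaks per kb and 0.424% of the span covered. The density of Map4k4 was 109 times that of Tnik, and Map4k4 is the shorter gene. Densities are not scaled to RNA level, which was not measured. A difference in RNA level and a difference in binding therefore cannot be told apart for this ratio.

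The other 5 kinase genes had 0 peaks on either strand. Mink1 spans 52.9 kb of chromosome 11 (70561580 to 70614482; gene 50932). Map4k1, the hematopoietic progenitor kinase, spans 21.2 kb of chromosome 7 (28982050 to 29003279; gene 26411). Map4k2 spans 14.6 kb of chromosome 19 (6340990 to 6355619; gene 26412). Map4k3, which acts in the signalling of amino acids to mTORC1, spans 148.3 kb of chromosome 17 (80580513 to 80728806; gene 225028). Map4k5 spans 89.4 kb of chromosome 12 (69803757 to 69893163; gene 399510). Map4k3 is thus longer than Map4k4 and was left without a peak. Nrk, a STE20 kinase gene outside the 7 that lies on chromosome X (138914231 to 139010532), also had 0 peaks over 96.3 kb.

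**Figure D1:**
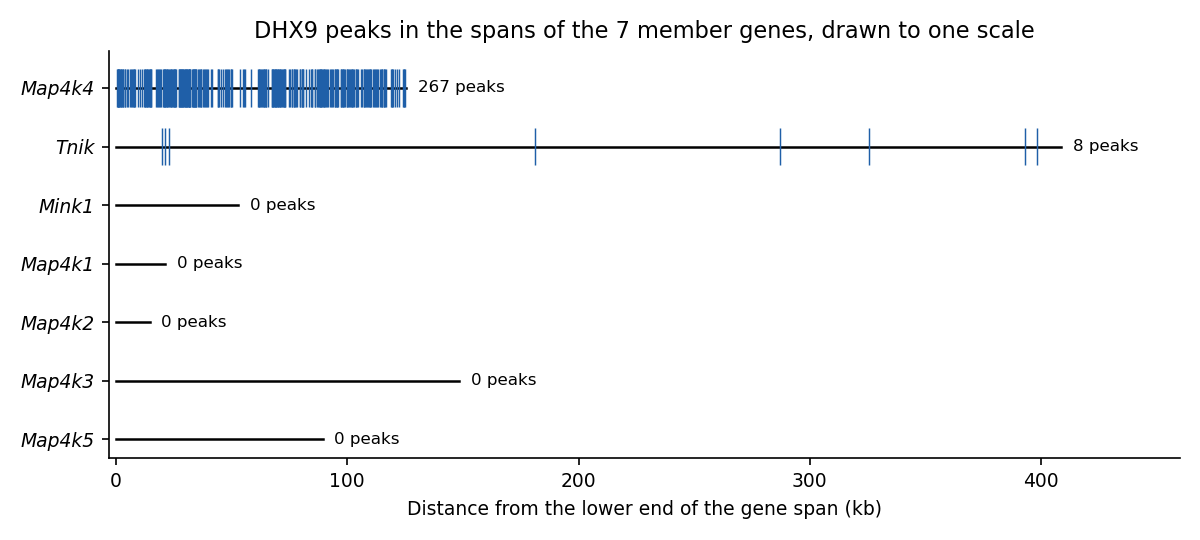
Each horizontal line is the RefSeq span of a gene drawn to one scale in kb from its lower coordinate, and each vertical tick is the midpoint of a DHX9 peak. The 267 ticks of Map4k4 fill its 125.4 kb, Tnik has 8 ticks over 408.7 kb and the other 5 genes have none.

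Longer genes carried a peak more often in this list, so each count can be set beside genes of like length. When protein-coding genes were ranked by span into 10 equal groups, 39.7% of genes in the longest group had a peak, and that group holds Map4k4, Tnik and Map4k3. The share was 35.2% in the group of Map4k5 and Nrk, 28.9% in that of Mink1, 19.7% in that of Map4k1 and 17% in that of Map4k2. In each of these length groups most genes had no peak. Expression was not measured here, and a low RNA level and a lack of binding cannot be told apart for these 5 genes.

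The distance to the nearest peak differed widely among the 5 genes without one. The nearest peak below Map4k1 ended 5106 bases away, in Eif3k on the minus strand, and the nearest above it began 159521 bases away, in Spred3. The nearest above Map4k2, a plus-strand gene, began 2057 bases away on the minus strand, in the noncoding gene Gm14966. Below Map4k2 the nearest ended 242156 bases away, in no annotated gene. For Mink1 the nearest peaks lay 11717 bases below, in the phospholipase gene Pld2, and 37527 bases above, in the profilin gene Pfn1. Map4k5 and Map4k3 stood in wider stretches with no peak. The closest peaks to Map4k5 were 159286 bases below, in Sos2, and 1087136 bases above, in Psma3. Those closest to Map4k3 were 327488 bases below, in the helicase gene Dhx57, and 832943 bases above, in Slc8a1.

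All 267 peaks of Map4k4 were on the plus strand, and all 8 of Tnik were too. No other annotated gene overlaps Map4k4, so none of its peaks could be assigned elsewhere. The only gene inside Tnik was the microRNA gene Mir466q, which held 0 peaks. Whether the strand of a peak is the strand of the gene was checked over the 3121 protein-coding genes with a strand in a RefSeq promoter table, using peaks in no other gene. Of their 30405 peaks, 30265 (99.5%) lay on the gene's own strand. That table gave a strand for 5 of the 7 kinase genes, those with 0 peaks, so for Map4k4 and Tnik the 5′ end was taken from the strand of their peaks.

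The Map4k4 peaks began and ended close to the annotated ends of the gene. The first peak started 609 bases into the span and the last ended 201 bases before its end, and 0 peaks crossed either edge. Just outside, a plus-strand peak in no annotated gene began 919 bases past the end. It was the only peak within 300 kb on that side. On the other side 0 peaks lay within 300 kb, and the nearest ended 516374 bases before the gene, in Tbc1d8 on the minus strand. The nearest annotated genes, the noncoding Gm35600 at 35813 bases before and the noncoding Gm16894 at 49902 bases after, had 0 peaks, as did the interleukin 1 receptor genes Il1r2 and Il1r1 that follow. The run of peaks was thus bounded by the gene's own limits to within about a kilobase.

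Within Map4k4 the peaks were spread over the whole span. Each of the 25 full windows of 5 kb held at least 3 peaks, with a median of 11 and a maximum of 19, and 111 of 125 windows of 1 kb (88.8%) held at least 1. The densest 5 kb, from 30 to 35 kb after the start, had 19 peaks. The 10 peaks packed most tightly took up 2080 bases (chr1:39927919-39929998), starting 27.0 kb into the gene. With the span cut into 4 equal parts from the 5′ end, 82 peaks (30.7%) were in part 1, 49 (18.4%) in part 2, 72 (27.0%) in part 3 and 64 (24.0%) in part 4.

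The thinnest part lay between 40 and 60 kb, a stretch picked after its values were seen. It held 20 peaks, or 1 per kb, against 2.67 per kb in the 107 peaks before it and 2.14 per kb in the 140 peaks after it. The 4 longest peak-free stretches of the gene were in or at the border of this part. They measured 3504 bases (50.2 to 53.7 kb), 3063 bases (58.4 to 61.5 kb), 2567 bases (55.7 to 58.2 kb) and 2439 bases (41.6 to 44.1 kb). Exons and introns were not used here, so the stretch could not be placed in the gene's structure.

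**Figure D2:**
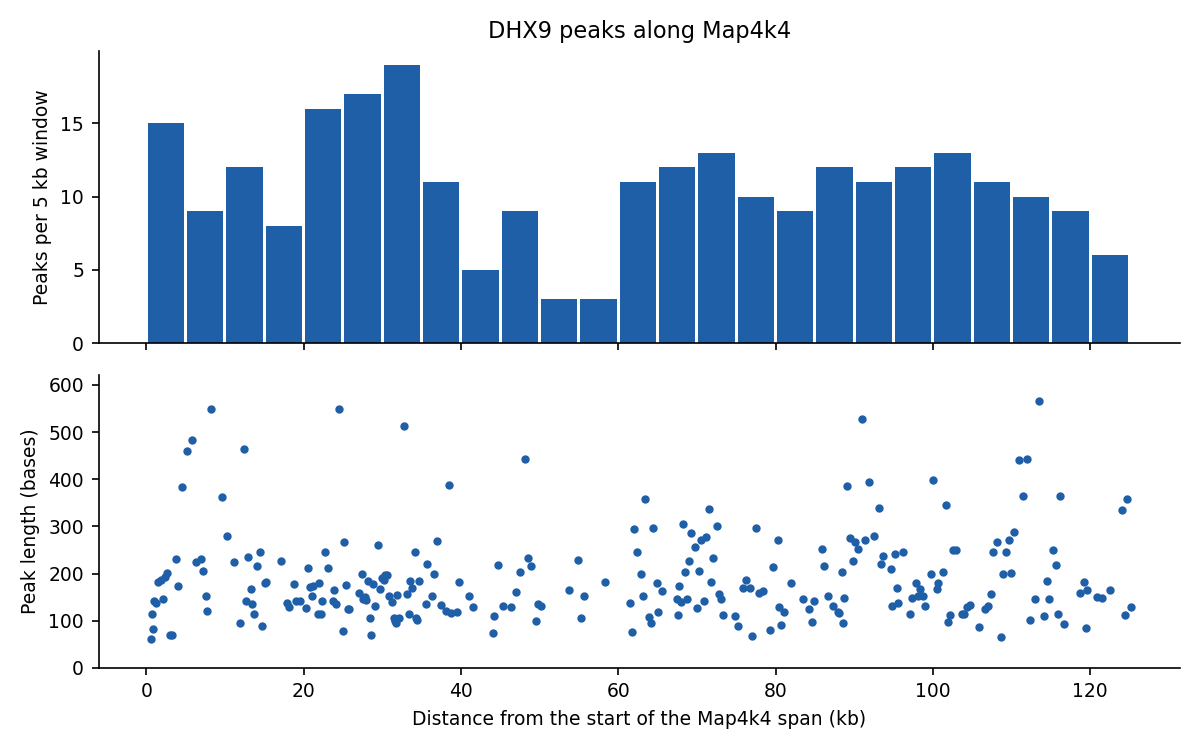
The upper panel gives the number of DHX9 peaks in each full 5 kb window of Map4k4 by distance from the start of the span in kb, and the lower panel the length in bases of each of the 267 peaks at its midpoint. Counts run from 3 to 19 per window, with the lowest windows between 40 and 60 kb, and lengths run from 61 to 565 bases along the whole gene.

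Neighbouring Map4k4 peaks lay a median of 347.5 bases apart, from midpoint to midpoint. The middle part of the 266 gaps ran from 240 (25th percentile) to 533 bases (75th percentile), and the whole range from 106 to 3652. Of these gaps 190 (71.4%) were under 500 bases and 19 were above 1000. Measured from the end of a peak to the start of the next, the median was 137.5 bases, 63 distances were at most 50 bases, and 0 peaks overlapped the next. When peaks no more than 500 bases apart were joined, they formed 34 groups, the largest with 32 peaks over 7.75 kb (27.0 to 34.8 kb). The 9 groups of 10 or more peaks held 182 of the 267. Joining within 1000 bases left 14 groups, of which the largest had 78 peaks over 33.4 kb (83.4 to 116.8 kb).

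In Tnik the median gap was 38578 bases over 7 gaps, with a range of 941 to 157988. The 3 peaks nearest its 5′ end were close together, at 20.1, 21.0 and 23.1 kb after the start (123, 313 and 249 bases long). Single peaks followed at 181.1 kb (86 bases), 287.2 kb (80 bases) and 325.7 kb (439 bases; chr3:28587430-28587868), and the last pair lay at 392.9 kb (334 bases) and 398.4 kb (108 bases). Of the 8 peaks, 3 were in part 1 of 4 equal parts of the span, 1 each in parts 2 and 3, and 3 in part 4. The longest stretch of Tnik without a peak was 157.8 kb, longer than the whole of Map4k4.

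Peak lengths of Map4k4 and Tnik overlapped. The Map4k4 peaks had a median length of 166 bases (25th and 75th percentiles, 129 and 226.5), those of Tnik 186 bases (102.5 and 318), and the 42839 peaks of the list outside Map4k4 153 bases (122 and 201). Peaks of at least 300 bases made up 10.1% of the Map4k4 peaks (27 of 267) and 7.20% of those outside it. The longest peak of Map4k4, 565 bases (chr1:40014094-40014658), was 113.5 kb into the gene, and the next 2, of 549 bases each, were at 8.22 and 24.6 kb.

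Map4k4 ranked 9 of 21900 protein-coding genes by number of peaks, and 0.201% of them reached 100 peaks. Among the 44 genes with at least 100 peaks, of which it was the 13th by span from the shortest, it ranked 1 by peaks per kb, where the other 43 had a median of 0.621 and a highest value of 1.83. It also ranked 1 of these 44 by share of the span covered, at 40.6%, against a median of 12.0% and a highest value of 40.4% in Epn2, which encodes an endocytic adaptor. Among the 137 genes with at least 50 peaks it ranked 2 by peaks per kb, after Igfbp2 (2.82 per kb over 28.0 kb), an insulin-like growth factor binding protein gene. It ranked 3 of these by coverage, after Igfbp2 (49.9%) and the cyclin gene Ccnd2 (42.3% of 27.0 kb). With lower minimum counts Map4k4 stood further down. By coverage it ranked 10 of the 1057 genes with at least 10 peaks, where the highest value was 58.9%. By peaks per kb it ranked 19 of the 4133 genes with any peak, where the highest value was 6.41. The genes next to Map4k4 in these orders are close in value, and without replicates it cannot be said which neighbours differ beyond their error. Neither density nor coverage is scaled to RNA level.

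Map4k4 also stood at the end of the order by its longest stretch without a peak, which was 2.79% of the span. That ranking was not planned, and it was 1 of several made on the same peaks by which the gene was chosen. Among the 1057 protein-coding genes with at least 10 peaks (4.83% of all) the share of 2.79% was the lowest. The other 1056 had a median of 35.5% (25th and 75th percentiles, 25.1 and 48.7) and a lowest value of 3.22%, in Igfbp2. Serpine2, a secreted protease inhibitor gene, followed with 5.03%. In bases rather than as a share, 3504 placed Map4k4 at rank 50 of the 1057. A share of the span is smaller in a gene with many peaks, and of the 44 genes with at least 100 peaks Map4k4 ranked 1 by share and 2 by bases. Even its thinnest 5 kb window, with 3 peaks, was occupied, whereas the other 43 genes had a peak in a median of 54.2% (highest 100%) of their full 5 kb windows. By the share of full 5 kb windows with a peak, Map4k4 ranked 1 of the 1057, a rank shared with any gene at 100%. It also ranked 1 by peaks per kb among the 966 genes with a peak and a span of at least 100 kb.

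**Figure D3:**
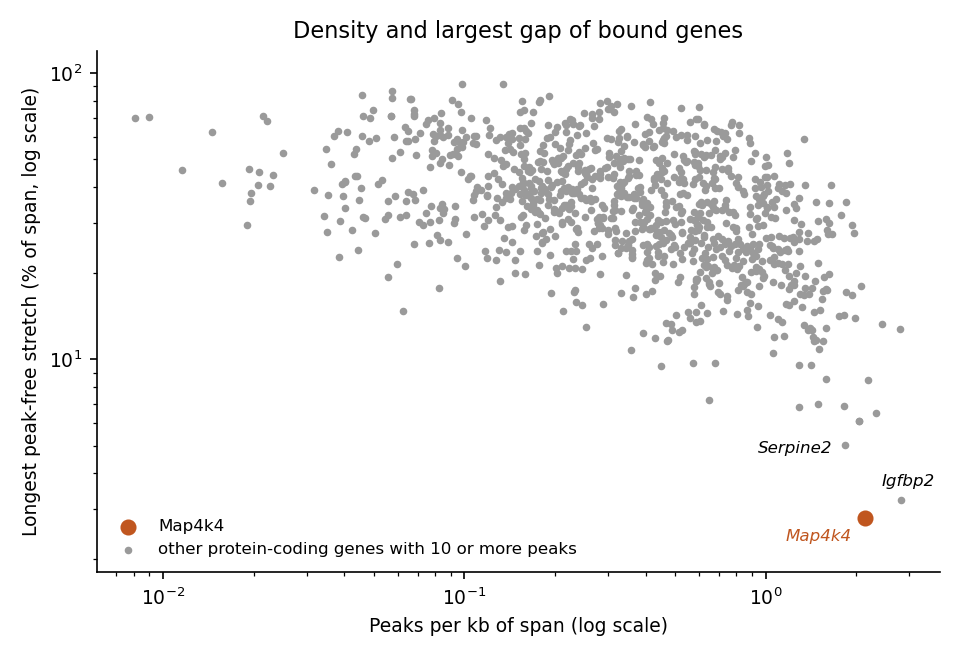
Each point is a protein-coding gene with at least 10 DHX9 peaks, plotted by peaks per kb of span (log scale) and by its longest stretch without a peak as a percent of the span (log scale). Map4k4, at 2.13 peaks per kb and 2.79%, is the lowest point, below Igfbp2 at 3.22% and Serpine2 at 5.03%.

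At short gaps Map4k4 lay inside the range of the other 43 genes with at least 100 peaks. Its median gap ranked 8 of 44 from the shortest, where the others had a median of 408 bases and a lowest value of 314.5. At long gaps it lay near or past the top of their range. Of its gaps, 92.9% were under 1000 bases and 98.1% under 2000, against a median over the other genes of 79.2% and 89.5%. All 266 were under 5000, as were all gaps of 2 of the other 43 genes. The spread of the gaps relative to their mean (coefficient of variation) was 0.946 in Map4k4, against a median of 2.73 in the others. Of these, Serpine2 alone was lower, at 0.816. From the lowest, Map4k4 ranked 5 of the 137 genes with at least 50 peaks and 151 of the 1057 with at least 10.

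**Figure D4:**
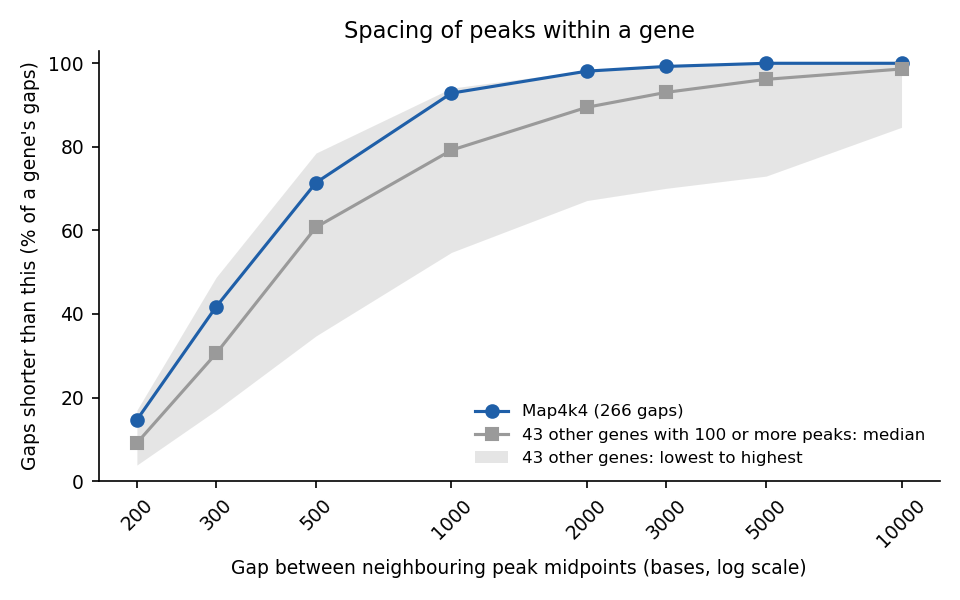
The curves give the percent of a gene's gaps between neighbouring peak midpoints that are shorter than the number of bases on the log-scaled horizontal axis. Map4k4 (circles) is above the median of the 43 other genes with at least 100 peaks (squares) at every length, by 92.9% against 79.2% at 1000 bases, and within their range from lowest to highest (grey band) up to 2000 bases.

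By position, the 503 other protein-coding genes with at least 20 peaks had, at the median, 36% of their peaks in part 1 of the span and 9.80% in part 4, where Map4k4 had 30.7% and 24.0%. The genes whose profile over 10 equal bins from the 5′ end was most like that of Map4k4, among the 43 others with at least 100 peaks, were Serpine2 (118 peaks), the syntrophin gene Sntb2 (124 peaks) and the ubiquitin ligase gene Nedd4 (118 peaks). The summed difference in share over the 10 bins was 32.8, 41.3 and 50.5 percentage points. The profile was compared on the 1 peak list and not over samples.

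Genes related to MAP4 kinases or linked to their signalling were taken as 6 lists. These were other STE20 kinases, MAP3 kinases, JNK module genes, Hippo genes, STRIPAK genes and Rap2 GTPases. Together they held 84 genes, of which 35 (41.7%) had a peak, against 18.9% of all protein-coding genes. No gene of the 6 lists came near Map4k4, since the highest count was 47 and 1 gene alone exceeded 1 peak per kb. The genes of 5 of these lists were longer, at a median span of 32.7 to 87.8 kb, than protein-coding genes at large (17.1 kb), and longer genes carried peaks more often.

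In the Hippo list 10 of 14 genes (71.4%) had a peak. The list leaves out the Hippo kinase genes Stk3 and Stk4, which are counted with the other STE20 kinases below. The median span of the list was 64.6 kb, in a length group where 35.2% of protein-coding genes had one, and the lists were not tested against each other or against genes of like length. Yap1, the coactivator that the pathway restrains, had 47 peaks (0.647 per kb), and Wwc1, an upstream activator, had 41 (0.288 per kb). Tead1, a DNA-binding partner of YAP, had 27 and Nf2, the tumour suppressor merlin, 11. Of the 2 LATS kinase genes, Lats1 had 8 peaks and Lats2 had 0. Peaks of Yap1 lay a median of 515.5 bases apart and covered 12.0% of its span.

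In the kinase cascade itself a peak was present in 4 of 18 MAP3 kinase genes (22.2%), against 35.2% of protein-coding genes in the length group of the list's median span. These were Map3k1 and Map3k3 with 13 each, Map3k10 with 2 and Map3k20 with 1. Map3k12, which encodes the neuronal kinase DLK, had 0. In the JNK module 6 of 11 genes (54.5%) had a peak, against 28.9% in the length group of its median span. Spans in this list ran from 3.19 kb (Jun) to 304.1 kb (Mapk10), so that length group is a loose match. With only peaks of median length or longer, 4 of the 11 had a peak. The scaffold genes Spag9 (14 peaks) and Mapk8ip3 (10) led, followed by the MAP2 kinase gene Map2k4 (4) and the transcription factor gene Atf2 (2). Of the JNK genes, Mapk9 and Mapk10 had 1 peak each and Mapk8 had 0, as did Jun.

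Among the other STE20 kinases 8 of 22 (36.4%) had a peak, near the 35.2% of the length group of their median span, and 1 of them reached 10. Taok1, which is itself a MAP3 kinase by function, had 17 peaks (0.177 per kb over 96.2 kb), Stk3, the Hippo kinase MST2, had 7, Taok2 had 5 and Pak2 had 3. Stk25 also had 3. The paralog of Stk3, Stk4, had 0.

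The STRIPAK complex joins a phosphatase to MAP4 and related kinases, and 7 of its 16 genes (43.8%) had a peak, against 26.3% in the length group of their median span. Both catalytic subunit genes of the phosphatase PP2A were bound, Ppp2ca with 32 peaks (1.34 per kb over 23.9 kb) and Ppp2cb with 15 (0.743 per kb). The striatin gene Strn3 had 26, of which 19 lay in no other gene, and Strn4 had 2. Both PP2A scaffold genes, Ppp2r1a and Ppp2r1b, had 0. The 3 Rap2 genes, which encode small GTPases that bind several MAP4 kinases, had 0, where the length group of their median span had 17%.

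**Figure D5:**
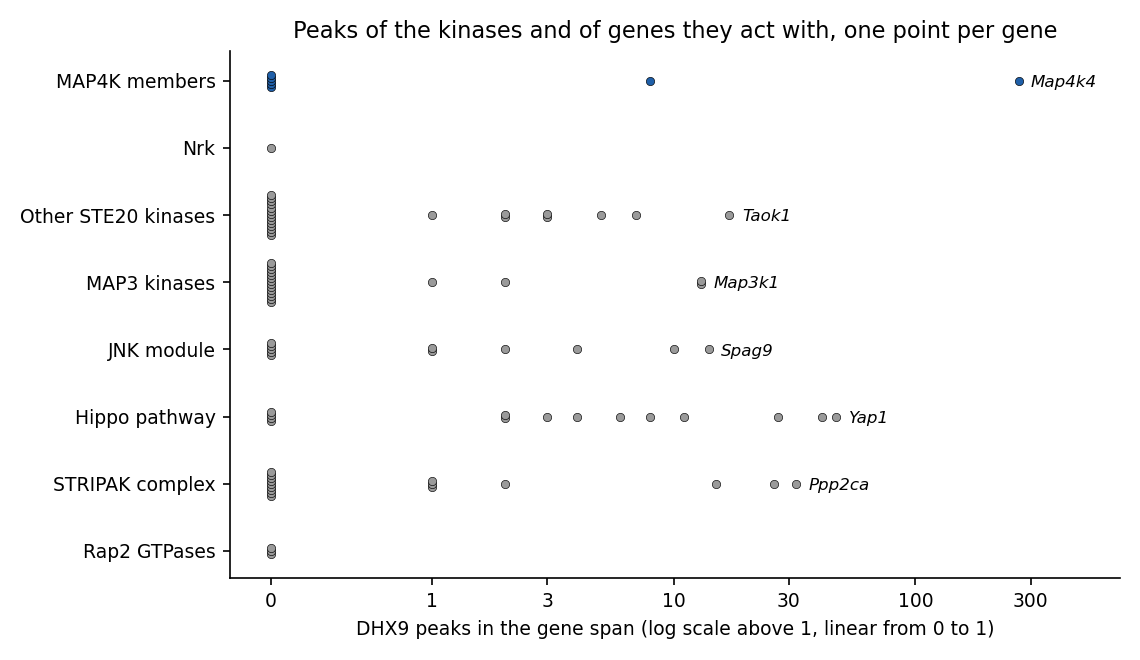
Each point is a gene, placed by its number of DHX9 peaks on an axis that is linear from 0 to 1 and logarithmic above 1, with a row for each list. Map4k4, at 267, lies beyond the highest gene of each other list, which are Taok1 (17), Map3k1 (13, as Map3k3), Spag9 (14), Yap1 (47) and Ppp2ca (32), while Nrk and the 3 Rap2 genes are at 0.

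Of the markers of the labelled cell type, 8 of 12 neural progenitor genes (66.7%) had a peak. The share was 18.9% of all protein-coding genes and 19.7% in the length group of the list's median span. The marker lists were drawn up with earlier results of these data known, so nothing is read from this contrast. Nfia (339), Nfib (206) and Slc1a3 (122) led, while Sox2, Nes, Pax6 and Hes1 had 0. Peaks in no other gene numbered 273 in Nfia, 77 in Nfib and 122 in Slc1a3. None of 5 pluripotency markers had a peak, 1 of 5 neuronal markers did (Map2, 46), and 2 of 7 astrocyte and oligodendrocyte markers did (Olig1 with 4 and Olig2 with 2). The neuronal (20%) and glial (28.6%) shares are near that of all genes, while the length groups of their median spans had 35.2% and 19.7%. The lists are small and the pluripotency genes are short (median span 7.14 kb), so these counts do not tell cell types apart. Dhx9, the gene of the protein pulled down, had 32 peaks.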

How the data were processed

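FLASH libraries with DHX9 antibody (2) and rabbit IgG (2) were grouped by their titles. The deposited file is 1 list of PEAKachu peaks, per the file headers, whose values are starts and ends in bases of the genome; its score column is blank. Per the submitters' processing notes, Bowtie2 2.2.6 and the builds hg19 and mm10 were used; the version and threshold of the caller are not given in the sources used here. Reads in sequence shared by paralogs may be placed by rules that are unknown.

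A peak was counted for a gene whose RefSeq span (GRCm38.p6; 49980 genes, 21900 protein-coding) held its midpoint. Symbols came from the same table, and Pak5 was found under Pak7. Density, gaps, coverage and position were computed with Python 3.11.15 and pandas 2.3.3, and the functions were tested on simulated peaks. The members and lists were chosen with earlier results of these data known. Named genes were the members, Nrk, neighbours, up to 4 genes per list with most peaks, the 3 with the most similar profile and Dhx9; others were named after their values were seen. Exons and protein identity, planned at first, were not used here. No chance test was made.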

Additional observations from a re-analysis of the deposited data

How the results depend on the processing

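Of 210 values recomputed under other settings, 195 were counted as the same. The limit was 1.5 times the reported count, density, rank or length, or its 95% binomial interval for shares and medians. Many of these values could not have moved, so the count is no measure of stability. A gene with no peak stays so when peaks are left out. All Map4k4 and Tnik peaks lay on the plus strand and in no other gene. For the medians of Tnik, the interval spanned the whole range of its values. With only the 21796 peaks of median length or longer, Map4k4 kept 153 peaks (1.22 per kb, median gap 517 bases, median length 216 bases) and Tnik 4 (0.00979 per kb, longest empty stretch 302325 bases, 0% of peaks in parts 2 and 3 of 4), and 2 MAP3 kinase genes had a peak, fewer peaks being counted by construction. With peaks within 50 bases merged, the Map4k4 gap was 511.5 bases and the length 200.5, by construction. Over 10 equal bins in place of 4 parts, the highest share of Map4k4 peaks was 4.67 times the lowest, against 1.67. By peaks per kb, Map4k4 ranked 2 among genes with at least 50 peaks and 9 with at least 5. It ranked 6 with at least 10 or 20, and 1 with at least 100. Its rank by longest peak-free share was 1 in all 10 other settings tried. Genes with at least 20, 50 or 100 peaks are part of those with at least 10, so rank 1 there was fixed beforehand. Minimum peak numbers and stretches between the first and last peak were chosen after seeing the data. Leaving out replicates was not run, as the list is pooled. No paired analysis was possible because the list has no value per library.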
